A study of Mus musculus with 6 samples.

Results

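The genes described here run the calcium cycle of the sarcoplasmic reticulum, the internal calcium store of heart muscle cells. They are 10 genes chosen by name: Atp2a2, Pln, Casq2, Slc8a1, Itpr1, Itpr2, Itpr3, Camk2d, Trdn and Jph2. All regions that the deposited table assigns to exactly these symbols were taken, which gave 121 distinct regions at 9 genes out of 213957 distinct regions in all. Pln had no region. DNA methylation was profiled by MBD-seq, in which sonicated DNA is captured through a methyl-CpG binding domain and sequenced, in male C57BL/6 mice at postnatal day 14 (P14) and postnatal day 1 (P1), with 3 libraries per age that the submitters call biological replicates. The animals carried no transgene or treatment by the labels. The sample labels name the left ventricle, while the protocol describes ventricles with the septum left in place after the atria were taken off. How many animals went into a library is not given in the sources used here. In such whole tissue, a change in the methylation of a cell type and a change in its share of the cells cannot be told apart.

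With each heartbeat, calcium leaves the sarcoplasmic reticulum through ryanodine receptors and is pumped back by SERCA2a, the product of Atp2a2, under the restraint of phospholamban, the product of Pln. Calsequestrin (Casq2) buffers calcium inside the store, triadin (Trdn) ties it to the release channel, and junctophilin 2 (Jph2) holds the store next to the cell membrane. The sodium-calcium exchanger (Slc8a1) removes calcium from the cell, the inositol trisphosphate receptors (Itpr1 to Itpr3) are a second family of release channels, and CaMKII delta (Camk2d) is a kinase that acts on several of these proteins. This machinery matures in the weeks after birth in the mouse.

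Capture gives read density, which rises with the number of methylated CpGs in a fragment, and no methylation level per site. All 121 regions were peaks, the short regions where methylated DNA had been enriched. The 6 libraries held 16284216 to 21512072 reads, of which peaks took 31.05%, 17.477% and 15.501% in P14 replicates 1 to 3, against 10.422%, 12.025% and 11.359% in P1 replicates 1 to 3. P14 replicate 1 thus stood apart, and so did P1 replicate 1, in which 2396 of 101291 peaks were empty (30 and 37 in P1 replicates 2 and 3). Because of the difference in peak share, levels are given as CPM, scaled to the reads in peaks of each library with TMM factors, so that a peak is compared with other peaks. A region is called lost or gained where its adjusted p was under 0.05 by the quasi-likelihood test of edgeR over 88742 peaks, with a lower or a higher CPM at P14.

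The genes differed in how many regions they carried. Itpr2, Itpr1 and Itpr3 held 38, 33 and 22 regions, 93 of the 121, while Jph2 had 8, Slc8a1 7, Camk2d 5, Atp2a2 3, Casq2 3 and Trdn 2. Per length of gene, Itpr3 was the densest with 33.7 regions per 100 kb of its RefSeq span, followed by Jph2 (12.9), Itpr1 (9.76), Itpr2 (9.65), Atp2a2 (6.16) and Casq2 (4.99). Camk2d (1.99), Slc8a1 (1.92) and Trdn (0.51) lay below the 3.72 peaks per 100 kb of the chromosomes as a whole. These densities count all regions of a gene, also those outside its span. Only 2 of the 3 Casq2 regions lie inside, and with these alone Casq2 would lie below 3.72 too. The regions were 391 to 10383 bp wide with a median of 823 bp, beside 852 bp over all peaks. All but 3 of them lay inside the span of their gene. Another gene, 1700062I23Rik, shares 3 of the Itpr3 regions by the table's assignment. Whether a region is exonic, intronic or in a UTR was not determined, since no transcript structure was used here.

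No region of these genes covered a gene start for which RefSeq sequence was at hand. The 250 bases before the start were taken for Jph2, Casq2, Camk2d, Itpr2, Pln, Itpr3 and Slc8a1 (RefSeq, GRCm38.p6). Of 32851 such windows over all genes, 7.27% overlapped a peak, as did 0.8% of the windows with 20 or more CpGs and 9.9% of those with fewer than 10. The 4 windows below show the range, from a start with hardly any CpG to CpG-dense starts, and the start with the nearest region. CpG dinucleotides are in capitals. The motif CG reads the same on both strands.

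Pln, chr10:53337436-53337685, plus strand: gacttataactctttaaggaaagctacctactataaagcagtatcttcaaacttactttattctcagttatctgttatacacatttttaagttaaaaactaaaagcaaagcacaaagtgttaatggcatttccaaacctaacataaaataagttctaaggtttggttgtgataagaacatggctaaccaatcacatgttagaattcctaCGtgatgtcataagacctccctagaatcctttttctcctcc
Jph2, chr2:163397994-163398243, minus strand: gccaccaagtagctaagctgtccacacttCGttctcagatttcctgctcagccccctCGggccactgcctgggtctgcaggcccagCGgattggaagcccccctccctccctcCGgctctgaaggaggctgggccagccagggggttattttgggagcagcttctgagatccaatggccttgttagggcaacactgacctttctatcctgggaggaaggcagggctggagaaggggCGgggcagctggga
Camk2d, chr3:126596701-126596950, plus strand: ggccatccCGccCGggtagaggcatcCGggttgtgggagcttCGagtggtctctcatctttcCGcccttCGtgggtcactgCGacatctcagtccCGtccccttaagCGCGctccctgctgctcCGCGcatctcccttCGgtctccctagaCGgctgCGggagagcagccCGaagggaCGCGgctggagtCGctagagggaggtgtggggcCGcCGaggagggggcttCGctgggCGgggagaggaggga
Itpr3, chr17:27057054-27057303, plus strand: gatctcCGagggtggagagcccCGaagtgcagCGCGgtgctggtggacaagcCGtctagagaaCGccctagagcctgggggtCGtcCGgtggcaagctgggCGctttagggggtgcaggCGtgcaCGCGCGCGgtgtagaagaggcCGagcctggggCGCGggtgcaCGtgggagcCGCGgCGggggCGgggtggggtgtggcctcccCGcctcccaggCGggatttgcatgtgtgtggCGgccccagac

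The Pln window held 1 CpG, and 92.1% of all windows held as many or more. Jph2 had 5 (55.6% of windows as many or more), Camk2d 23 (13.3%) and Itpr3 25 (10.7%), with Casq2 at 5, Slc8a1 at 8 and Itpr2 at 22. The nearest region lay 256 bp from the Jph2 window, inside the gene, and 1451 bp from the Itpr3 window. At Casq2 the distance was 2234 bp, at Itpr2 34265 bp, at Camk2d 34622 bp and at Slc8a1 89003 bp. For Pln, the gene itself lay in a stretch between peaks on chromosome 10 (53307318 to 53359259), which held 141, 306 and 210 reads in the P14 libraries and 381, 366 and 309 in the P1 libraries. The stretch is 51942 bp long, which gives 2.72 to 5.89 reads per kb at P14 and 5.95 to 7.34 at P1. These values are not scaled to depth, and they were not compared with those of other stretches.

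Relative to other peaks, the regions that passed the test between ages were all lower at P14, at the genes for the calcium pump, an inositol trisphosphate receptor and the sodium-calcium exchanger. Of the 102 regions with enough reads to be tested, 5 were lost by P14 (4.9%), where 2.66% of all tested peaks were lost. They were 2 of 3 tested regions at Atp2a2, 2 of 26 at Itpr1 and 1 of 7 at Slc8a1. None was gained in edgeR's quasi-likelihood test, where 0.15% of all peaks were. DESeq2 also called 0 gained (0.113% of all peaks). By unadjusted p under 0.05, 6 were higher (2.73% of all peaks) and 7 lower at P14 (5.2% of all peaks). The median log2 change over the 102 was 0.03, with 52 above and 50 below 0, beside 0.01 over all tested peaks. These values are relative to other peaks. Scaled instead to the reads between peaks, the median over all peaks was 1.19, 0 member regions were lost (0.0467% of all peaks) and 12 were gained (6.96%).

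Among the pump and its regulators, Atp2a2 (ENSMUSG00000029467, chromosome 5) had 3 regions that begin 0.47, 2.13 and 7.86 kb from the low-coordinate end of a 48.7 kb span. The region from 122455642 to 122456400 held 9, 13 and 4 reads in the P14 libraries, against 18, 21 and 19 in the P1 libraries. Every P14 library lay below every P1 library in reads (2.21% of all peaks) as in CPM (6.74%). Lost regions were called on these same reads, so such an order is no separate evidence of a loss, here or at the genes below. The level was 2.18 ± 1.26 CPM at P14 and 9.65 ± 0.453 CPM at P1 (SD, n = 3 each), 4.49-fold lower (log2 change -2.17, SE 0.48, adjusted p = 0.0243 in edgeR's quasi-likelihood test). Its neighbour from 122453980 to 122454591 held 15, 18 and 4 reads at P14 and 28, 15 and 18 at P1. The read counts overlap here, while the CPM do not: 2.94 ± 1.83 at P14 and 10.4 ± 4.33 at P1 (SD, n = 3 each), 3.45-fold lower (log2 change -1.79, SE 0.47, edgeR adjusted p = 0.0439). The other Atp2a2 region (122461374 to 122462080) did not follow them, with 36, 19 and 14 reads at P14 and 3, 16 and 4 at P1 (log2 change 0.50, SE 0.54, edgeR adjusted p = 1). Summed over its 3 regions, Atp2a2 had 9.04, 13.9 and 8.52 CPM at P14 and 26.7, 24.7 and 19.7 CPM at P1, with no overlap between the ages. The 2 lost regions are part of this sum, so its order follows in part from the calls.

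Slc8a1 (ENSMUSG00000054640, chromosome 17), whose product carries calcium out of the cell, had 7 regions in a 365.3 kb span. Its lost region (81615004 to 81615935) held 18, 18 and 11 reads at P14 and 23, 33 and 18 at P1. Read counts touch at 18, but CPM was lower in every P14 library (6.74% of all peaks), at 4.0 ± 1.18 against 12.3 ± 3.53 at P1 (SD, n = 3 each), 3.17-fold (log2 change -1.66, SE 0.39, edgeR adjusted p = 0.0274). Another region missed the threshold narrowly: from 81418133 to 81418823 it held 6, 7 and 7 reads at P14 and 9, 14 and 20 at P1 (log2 change -2.04, SE 0.58, edgeR adjusted p = 0.0617). The highest Slc8a1 region, 1856 bp from 81647530 to 81649385, held 101, 61 and 44 reads at P14 and 17, 34 and 33 at P1. Its CPM of 16.4 ± 1.04 at P14 and 13.8 ± 3.89 at P1 (SD, n = 3 each) overlapped between ages (log2 change 0.24, SE 0.27, edgeR adjusted p = 1). The gene as a whole summed to 47.8 ± 4.12 CPM at P14 and 62.8 ± 10.3 CPM at P1 (SD, n = 3 each).

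**Figure D1:**
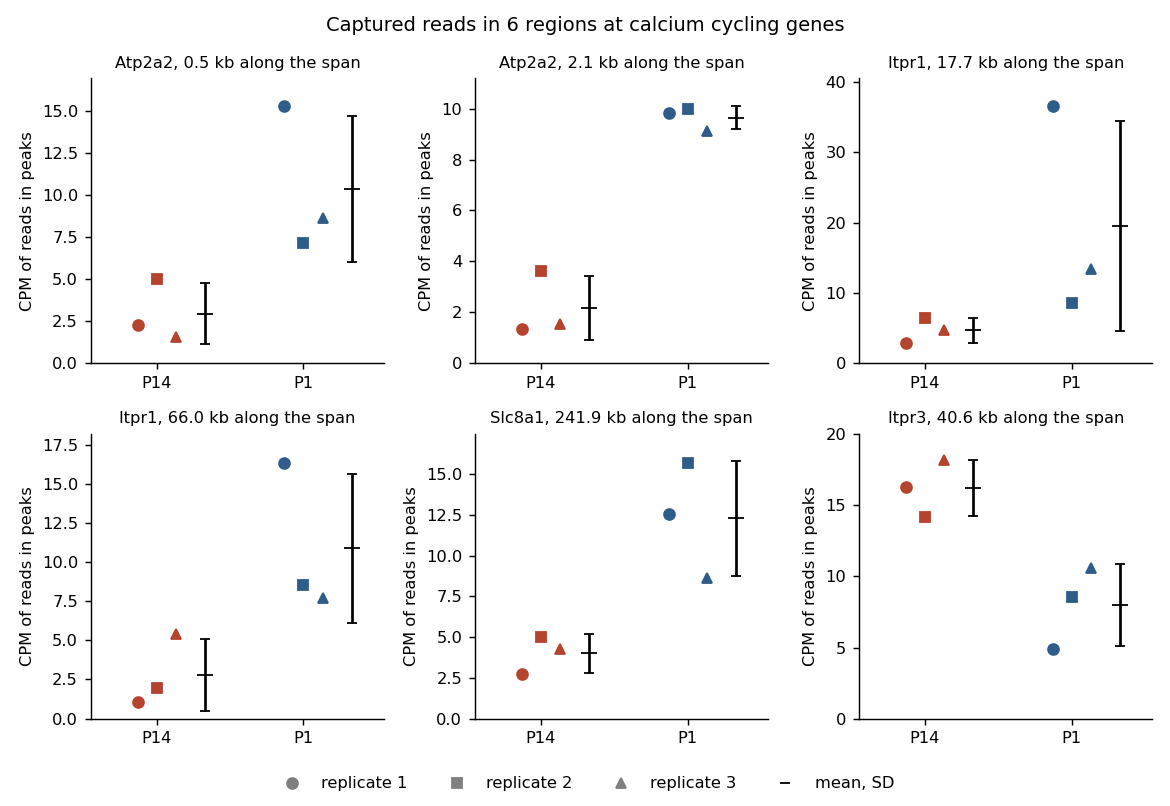
CPM of reads in peaks for the 5 regions called lost and the Itpr3 region with the smallest p, P14 libraries left and P1 libraries right, with the mean and SD (n = 3 each). Every P14 library lies below every P1 library in the 5 lost regions (6.74% of all peaks) and above them at Itpr3 (5.32%). The 6 regions were picked by their p from the same reads, so these orders follow in part from the choice. P1 replicate 1 is the highest P1 library in 3 of the 5.

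Itpr1 (ENSMUSG00000030102, chromosome 6), the type 1 inositol trisphosphate receptor gene, carried its lost regions near the low-coordinate end of a 338.0 kb span. From 108230806 to 108232294, P14 libraries held 19, 23 and 12 reads and P1 libraries 67, 18 and 28. P1 replicate 1 was far above the other libraries, and the P1 level was 19.5 ± 14.9 CPM, against 4.64 ± 1.77 CPM at P14 (SD, n = 3 each; log2 change -2.11, SE 0.44, edgeR adjusted p = 0.022). From 108279054 to 108279795, P14 libraries held 7, 7 and 14 reads and P1 libraries 30, 18 and 16, without overlap (2.21% of all peaks). The level was 2.81 ± 2.31 CPM at P14 and 10.9 ± 4.78 CPM at P1 (SD, n = 3 each; log2 change -2.11, SE 0.53, edgeR adjusted p = 0.034). Of the 33 Itpr1 regions, 4 lay in the first 66 kb, a limit drawn after seeing the values, and these include both lost regions. They also include a tested region close to the second lost one, from 108277151 to 108277979, that was not called. It held 52, 30 and 21 reads at P14 and 16, 22 and 20 at P1 (log2 change -0.25, SE 0.32). Beyond the 66 kb limit, the 23 tested regions had log2 changes of -0.34 to 0.80 with a median of -0.01, and 0 were called. The highest Itpr1 region, 4761 bp from 108428485 to 108433245, held 247, 156 and 123 reads at P14 and 65, 129 and 133 at P1 (42.8 ± 5.25 and 53.6 ± 15.7 CPM, SD, n = 3 each), and its log2 change of -0.34 (SE 0.24) did not pass (edgeR adjusted p = 1).

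Itpr2 (ENSMUSG00000030287), the type 2 receptor gene on the same chromosome, had the most regions and 0 calls. Its 35 tested regions had log2 changes of -0.47 to 0.92 with a median of -0.07, 15 above and 20 below 0. In 21 of its 38 regions every P14 library held more reads than every P1 library, yet in CPM this was so in 1. Over all peaks the shares were 41.4% in reads and 5.32% in CPM. The highest, 2899 bp from 146313619 to 146316517, held 187, 147 and 101 reads at P14 and 90, 93 and 97 at P1. In CPM the order turned, to 36.1 ± 6.92 at P14 and 46.6 ± 2.44 at P1 (SD, n = 3 each; log2 change -0.38, SE 0.23, edgeR adjusted p = 0.935). The smallest p was at 146374118 to 146374873, with 78, 22 and 23 reads at P14 and 6, 15 and 8 at P1 (log2 change 0.92, SE 0.41, edgeR adjusted p = 0.521). In this region CPM overlapped between ages. Summed over the gene, Itpr2 had 376 ± 24.9 CPM at P14 and 389 ± 26.4 CPM at P1 (SD, n = 3 each), a ratio of 0.967.

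Itpr3 (ENSMUSG00000042644, chromosome 17), the type 3 receptor gene, had 19 tested regions and 0 calls. Their log2 changes ran from -0.38 to 0.995 with a median of 0.16, and 12 of 19 were positive, as were 51.4% of all tested peaks. The region from 27097593 to 27098600 held 108, 51 and 47 reads at P14 and 9, 18 and 22 at P1, and every P14 library was higher also in CPM (5.32% of all peaks). Its level was 16.2 ± 2.0 CPM at P14 and 8.01 ± 2.87 CPM at P1 (SD, n = 3 each), a 1.99-fold difference that did not pass (log2 change 0.99, SE 0.31, edgeR adjusted p = 0.0975). Near the high-coordinate end of the span lay the widest region of all these genes, 10383 bp from 27109991 to 27120373, a width reached by 13 of all 101291 peaks. It held 1570, 542 and 348 reads at P14 and 207, 299 and 206 at P1. Its CPM overlapped, at 174 ± 54.6 at P14 and 118 ± 22.0 at P1 (SD, n = 3 each; log2 change 0.57, SE 0.25, edgeR adjusted p = 0.476). This region carried much of the gene's summed level of 558, 393 and 370 CPM at P14 and 353, 363 and 352 CPM at P1. P14 replicate 1 was the highest in both.

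**Figure D2:**
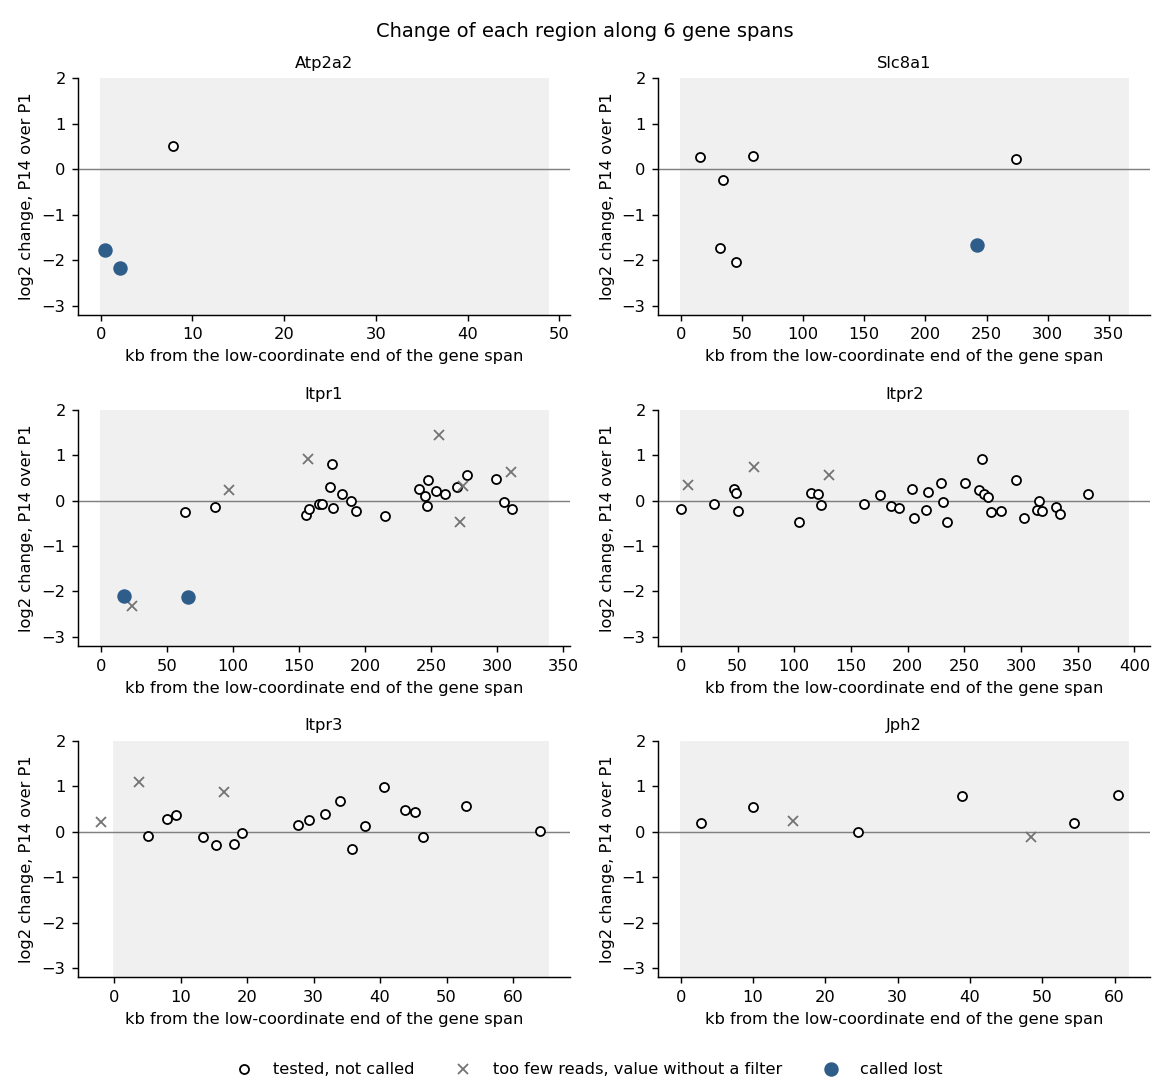
log2 change (P14 over P1) of each region against its distance in kb from the low-coordinate end of the gene span (grey), for Atp2a2, Slc8a1, Itpr1, Itpr2, Itpr3 and Jph2. Filled points are the 5 regions called lost, open points were tested and not called, and crosses had too few reads and show the value of a fit without a filter. At Itpr1 the points at about -2 sit in the first 66 kb, and at Itpr2 no point falls below -0.47.

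Jph2 (ENSMUSG00000017817, chromosome 2), for the protein that joins the store to the membrane, had 5 of 6 tested regions above 0, with a median log2 change of 0.36. The highest, 2450 bp from 163375197 to 163377646, held 249, 83 and 39 reads at P14 and 32, 38 and 21 at P1. It averaged 25.2 ± 11.3 CPM at P14 and 15.2 ± 4.44 CPM at P1 (SD, n = 3 each), with overlap between ages (log2 change 0.78, SE 0.31, edgeR adjusted p = 0.353). The region next to the gene start (163396770 to 163397738), named because it is the nearest to any start, held 73, 33 and 23 reads at P14 and 16, 11 and 6 at P1. Its CPM did not overlap, at 9.70 ± 1.13 at P14 and 5.61 ± 2.94 at P1 (SD, n = 3 each), as in 5.32% of all peaks. The change did not pass (log2 change 0.82, SE 0.39, edgeR adjusted p = 0.604).

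The genes of the store's buffer and anchor were sparsely covered. Casq2 (ENSMUSG00000027861, chromosome 3) had 3 regions, of which 102083335 to 102083931 lies 2484 bp outside the gene span. It held 19, 19 and 10 reads at P14 and 1, 10 and 12 at P1 (log2 change 0.06, SE 0.62, edgeR adjusted p = 1). P1 replicate 1 had 1 read there and 0 in another Casq2 region, against 10 or more in the other P1 libraries in both. Trdn (ENSMUSG00000019787, chromosome 10) had 2 regions in a span of 393.2 kb, and they ran in opposite directions. From 33182609 to 33183105 there were 1, 9 and 2 reads at P14 and 25, 16 and 7 at P1, too few for the test. From 33463058 to 33463810 there were 32, 19 and 11 reads at P14 and 6, 5 and 7 at P1. Every P14 library was higher also in CPM, as in 5.32% of all peaks (log2 change 0.68, SE 0.53, edgeR adjusted p = 1).

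Camk2d (ENSMUSG00000053819, chromosome 3), the kinase gene, had 3 tested regions and 0 calls. The smallest p was at 126748908 to 126749463, with 27, 22 and 19 reads at P14 and 2, 10 and 6 at P1 (log2 change 0.93, SE 0.55, edgeR adjusted p = 0.925). The highest region, 126839800 to 126840582, held 89, 32 and 26 reads at P14 and 13, 35 and 31 at P1, with overlap on both scales (log2 change -0.24, SE 0.32, edgeR adjusted p = 1). In the summed level the ages overlapped, at 29.5 ± 4.34 CPM at P14 and 33.1 ± 1.33 CPM at P1 (SD, n = 3 each).

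The 19 regions left out of the test had means of 10 to 16.3 reads per library. A peak that is high at only 1 age can fail or pass this filter through that age alone, so a fit with no filter was also made over all 101291 peaks. In it 12 of the 19 had a positive and 7 a negative log2 change, and 3 were lost. These were the Trdn region above (log2 change -2.95, SE 0.72, adjusted p = 0.036), a Camk2d region (126757636 to 126758265; -2.42, SE 0.62, adjusted p = 0.0409) and a further Itpr1 region (108236740 to 108237380; -2.31, SE 0.62, adjusted p = 0.0488), by edgeR's quasi-likelihood test. At Camk2d the reads were 8, 5 and 8 at P14 and 36, 9 and 10 at P1, and at Itpr1 12, 12 and 2 at P14 and 40, 8 and 11 at P1. In both, P1 replicate 1 held most of the P1 reads, and at Trdn it was also the P1 library with the most reads. Without that library the Camk2d region had a log2 change of -1.37 (edgeR adjusted p = 0.721), and the Itpr1 and Trdn regions had too few reads to be tested. Together with the 5 above, 8 of 121 regions at 5 genes were lost without a filter, where 2.66% of all peaks were.

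**Figure D3:**
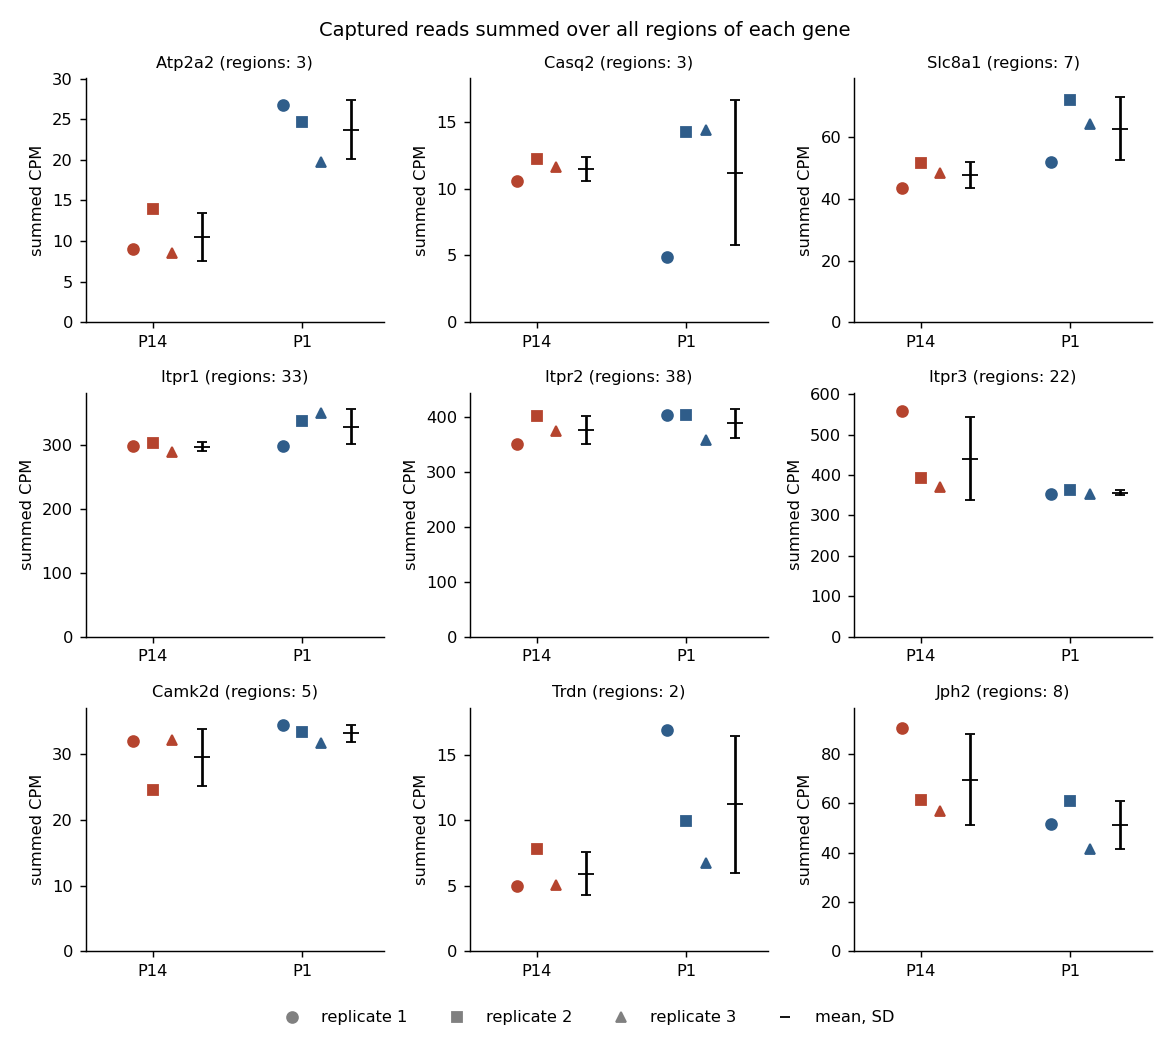
CPM summed over all regions of each of the 9 genes, P14 libraries left and P1 libraries right, with the mean and SD (n = 3 each). Every P14 library is below every P1 library at Atp2a2 and, by a narrow margin, at Slc8a1. At Itpr3 every P14 library is above, also by a narrow margin (369.88 against 363.25 CPM), and the ages overlap at the other 6 genes. The sums of Atp2a2 and Slc8a1 include their lost regions, and the share of all genes with such an order was not computed.

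The read density of a gene's regions was also divided by that of the stretches between peaks inside its span, in each library. This is a scaling to reads between peaks made gene by gene, so it carries the capture enrichment of each library. Over all peaks and all stretches the ratio was 10.3, 4.85 and 4.21 in P14 replicates 1 to 3 and 2.67, 3.13 and 2.94 in P1 replicates 1 to 3, with every P14 library higher. At Atp2a2 this ratio was 1.58, 2.20 and 1.18 at P14 and 1.84, 2.47 and 1.61 at P1, from only 6.0 kb of such stretches. Itpr1 had the order of the peaks as a whole, with ratios of 4.52, 2.65 and 2.57 at P14 and 1.58, 1.99 and 1.97 at P1. The same held for Itpr2, at 3.45 ± 0.973 at P14 and 2.03 ± 0.221 at P1, and Jph2, at 3.67 ± 2.05 at P14 and 1.67 ± 0.352 at P1 (SD, n = 3 each). P14 replicate 1 had the highest ratio of all 6 libraries in 8 of the 9 genes, Atp2a2 being the exception.

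The 5 lost regions had lower mean ratios at P14 than at P1. They were picked for low P14 values of the same reads, so these ratios are no separate evidence of a loss. The Atp2a2 region from 122455642 had 0.933 ± 0.546 times the density of the stretches at P14 and 2.21 ± 0.463 times at P1 (SD, n = 3 each), and its neighbour 1.58 ± 1.00 times at P14 and 2.80 ± 0.677 times at P1. The Itpr1 region from 108230806 had a ratio of 1.05 ± 0.179 at P14 and 2.38 ± 1.71 at P1, and the one from 108279054 had 1.21 ± 0.819 at P14 and 2.69 ± 1.05 at P1 (SD, n = 3 each). At P14 the Atp2a2 region from 122455642 and both Itpr1 regions thus had means between 0.933 and 1.21, where 1 is the density of the stretches. The lost Slc8a1 region had 2.75 ± 0.906 at P14 and 3.44 ± 1.10 at P1 (SD, n = 3 each). The SD ranges of the ages overlapped in 4 of the 5, all but the Atp2a2 region from 122455642.

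**Figure D4:**
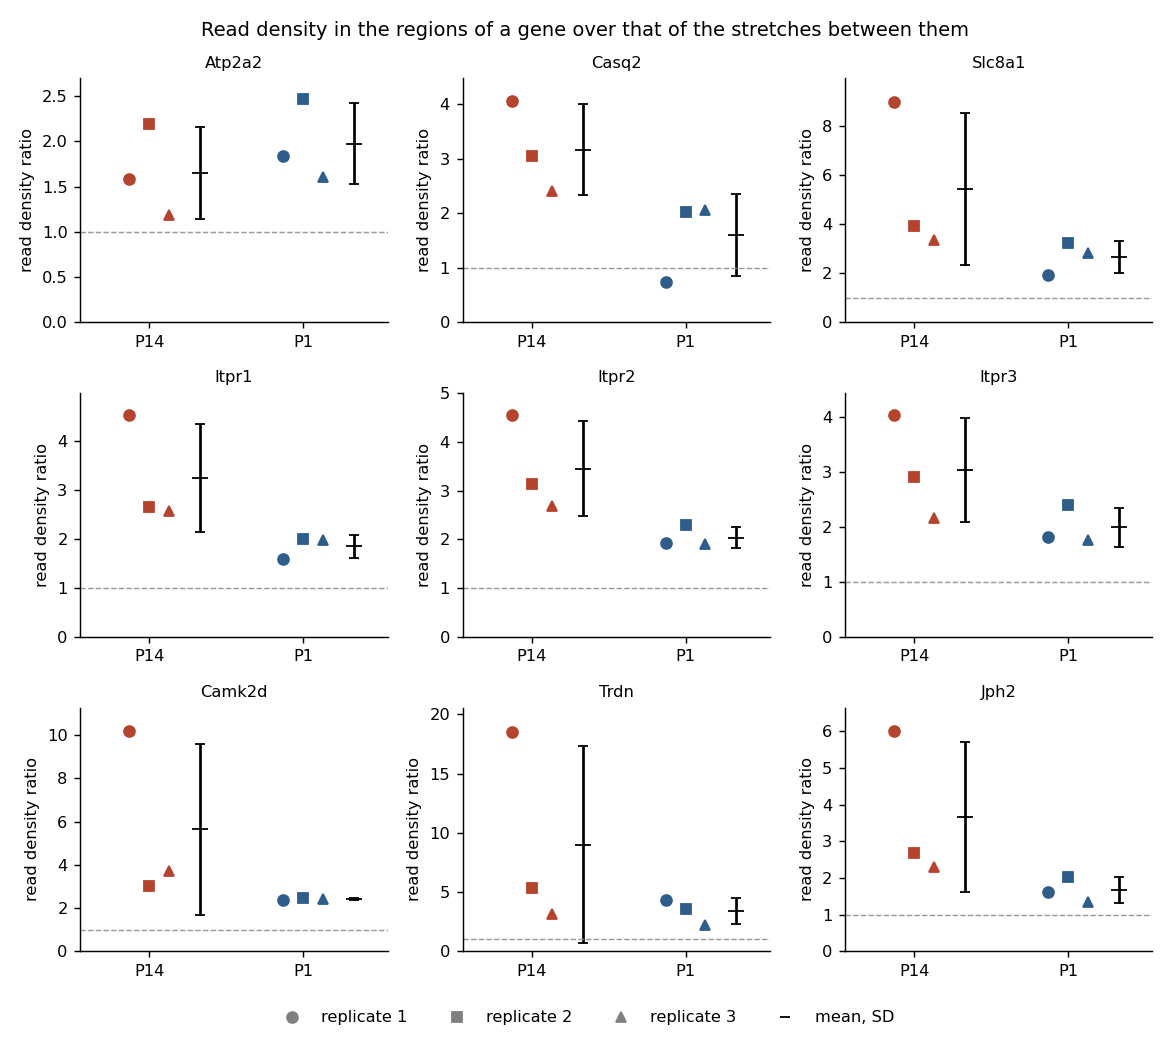
Read density in the regions of each gene divided by that of the stretches between peaks inside the gene span, P14 libraries left and P1 libraries right, with the mean and SD (n = 3 each) and a dashed line at 1. P14 replicate 1 is the highest library in 8 of the 9 genes, and at Atp2a2 the ages overlap between 1.61 and 2.20.

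The calls rest on few reads and on particular libraries. Without P14 replicate 1, the library with the largest share of reads in peaks, edgeR called 0 of all 91035 peaks, and the 5 lost regions had log2 changes of -1.82 to -1.38 (adjusted p from 0.175 to 0.249). Without P1 replicate 1, only the Atp2a2 region from 122455642 (log2 change -2.18, adjusted p = 0.0363) and the Slc8a1 region (-1.68, adjusted p = 0.0384) were still lost (0.621% of all peaks). The log2 change at the Itpr1 region from 108230806 was then -1.32, in place of -2.11. Without P14 replicate 3 both Itpr1 regions were still lost (1.76% of all peaks), and the log2 change at the one from 108279054 was -2.90. Without P1 replicate 2 the Itpr1 region from 108230806 alone of the 5 was still lost (1.56%). Without P1 replicate 3 the Itpr1 and Slc8a1 regions were still lost and both Atp2a2 regions were not (1.72%), and without P14 replicate 2 the Itpr1 region from 108279054 alone of the 5 was not (1.6%). None of the 5 passed in all 6 of these fits. P1 replicate 1 was the highest P1 library in 3 of the 5 lost regions. Over all peaks, it was the highest in 82.8% of those lost and 38.5% of those not called. The part of P1 replicate 1 in the result was not tested. With the share of reads in peaks of each library as a covariate, the 5 log2 changes were -1.56 to -0.84 and 0 passed. The same held for all 88742 peaks, of which 0 passed. That share is larger in every P14 library than in every P1 library, so this fit can hardly separate it from age. Scaled to the reads between peaks, all 5 were still lower at P14, with log2 changes of -1.09 to -0.58 and adjusted p from 0.123 to 0.35.

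**Figure D5:**
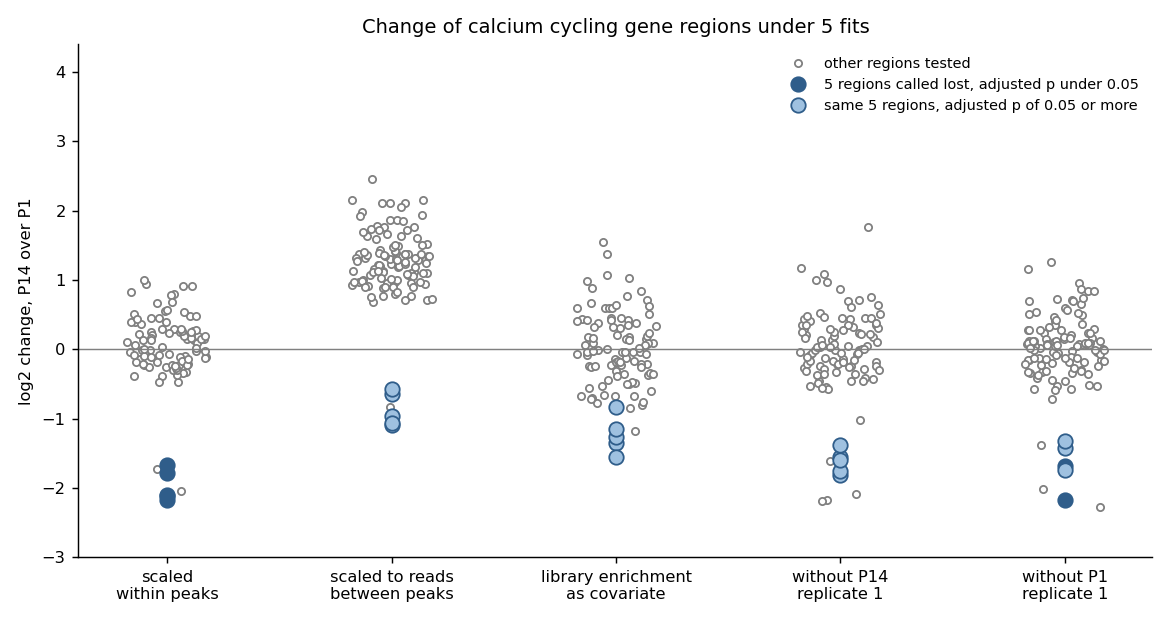
log2 change (P14 over P1) of the regions of the 9 genes under 5 fits; open points are the other regions tested, and filled points the 5 regions called lost, dark where the adjusted p was under 0.05. The 5 stay below 0 in all 5 fits, while scaling to the reads between peaks puts 107 of the other regions above 0.

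Under that scaling the 12 gained regions were 4 at Itpr1, 3 at Itpr3, 2 at Camk2d, 2 at Jph2 and 1 at Itpr2, with log2 changes of 1.76 to 2.46. They include the Itpr3 region from 27097593 (2.15, adjusted p = 0.0283), both Jph2 regions above (2.10 and 2.05) and the Camk2d region from 126748908 (1.97, adjusted p = 0.0477), by edgeR's quasi-likelihood test. The median over all peaks on this scale was 1.19, so a shift in this direction was shared with the peaks of the genome. How much of each change is that shift was not tested.

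Of 55 other genes of the pathway, 34 had a region, with 258 regions tested and a median log2 change of 0.06. Among these 258, 2 were gained and 12 lost, where 0.15% and 2.66% of all peaks were. In the release channel complex 10 of 81 regions were lost: 8 of 15 at Ryr2, the ryanodine receptor of the heart (3.16-fold to 7.13-fold lower), 1 at Ryr3 (3.43-fold lower), and 1 at Sri, the gene of sorcin, a calcium-binding protein that acts on the release channel (6.38-fold lower). Ryr1, the ryanodine receptor of skeletal muscle, had the most tested regions of this list, 35, and 0 calls. The Sri region (chromosome 5, 8059824 to 8060539) held 4, 7 and 6 reads at P14 and 26, 18 and 12 at P1 (log2 change -2.67, SE 0.57, edgeR adjusted p = 0.0223). Among the junctophilins, a region at Jph1 was lost (3.96-fold lower) and a region at Jph3, shared with Gm20388, was gained (2.47-fold higher). A region at Slc8a2, a sodium-calcium exchanger of the nervous system, was gained (2.97-fold higher), and a region at Stim2, a sensor of store calcium, was lost (3.74-fold lower). No region passed among 24 at the pump family and its regulators, where the smallest p was at Atp2a3 (log2 change 1.05, SE 0.34, edgeR adjusted p = 0.12), or among 33 at the other CaMKII genes and inhibitors, where it was at Camk2b (0.84, SE 0.32, edgeR adjusted p = 0.265). Without P14 replicate 1 none of the 14 called regions passed, and the fold of the Ryr2 region from 11822664 was 3.98 in place of 7.13. Without P1 replicate 1, 2 of the 14 passed, 1 of them at Ryr2. The Jph1 region was then 2.03-fold lower (edgeR adjusted p = 0.699), the Ryr3 region 2.19-fold (edgeR adjusted p = 0.156), the Stim2 region 2.49-fold (edgeR adjusted p = 0.0549) and the Ryr2 region from 11897123 3.85-fold, in place of 5.90-fold. Without P14 replicate 2 the Ryr2 regions from 11822664 and 11751799 were 20.7-fold and 7.49-fold lower, in place of 7.13-fold and 4.91-fold, and without P14 replicate 1 the one from 11897123 was 3.89-fold lower. Leaving out one of the other 4 libraries left 7 to 10 of the 14.

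Of 103 tested regions at 21 marker genes of the cell types in a ventricle, 0 were gained and 0 lost in edgeR's quasi-likelihood test, where 0.15% and 2.66% of all peaks were. The median log2 change was 0.41 over 34 regions at cardiomyocyte markers, -0.20 over 13 at fibroblast markers, 0.02 over 21 at endothelial markers, 0.13 over 33 at smooth muscle and pericyte markers and 0.02 over 2 at blood and immune markers. MBD-seq measures no expression, so these values neither show nor exclude a cell type.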

How the data were processed

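The deposited table holds read counts per region and library, which the authors left without normalization, as the values show. The submitters' processing notes list the build GRCm38 (mm10) and the tools edgeR 3.2.4, bedtools, MACS and BWA; how peaks were called, or duplicates and pooling handled, is not given there. Of 221524 lines, 7567 repeat a region for a further gene. Regions alternate along the chromosomes between peaks and the stretches between them; this class was inferred here from gene names, shared borders, width and density, giving 101291 peaks and 112630 stretches. All member regions carry a gene name, so their class does not rest on density. No region had a mean under 10 reads, which points to a filter ahead of deposit.

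Peaks were tested with edgeR 4.0.16 in R 4.3.3 (quasi-likelihood F test, TMM, default expression filter by age, age as the only term, Benjamini-Hochberg over all peaks, threshold 0.05); the standard error is the log2 change over the square root of F. The scripts were tested on simulated counts. DESeq2 1.42.0 and other settings are alternatives. Libraries of an age differed by more than sampling noise (chi-square per degree of freedom 1.38 to 4.55), so none was merged; p-values measure the spread between these libraries. Named regions are all that were called and, per gene, those with the smallest p and the highest level; any other named region was chosen after its values were seen. The members and gene lists were chosen with earlier results of these data known. Gene spans and sequences are RefSeq GRCm38.p6; 7 of the 10 members had a start sequence, and Atp2a2, Itpr1 and Trdn did not.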

Additional observations from a re-analysis of the deposited data

How the results depend on the processing

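With all 6 libraries scaled within peaks, 5 of 102 tested member regions were lost and 0 gained (2.66% and 0.15% of all peaks). DESeq2 left 5 lost (2.74% of all peaks), and so did its size factors in edgeR (2.68%) and gene-named peaks only (2.11% of these). A filter by totals over all regions, added after seeing the data, left 5 of 114 (2.36%). With no TMM factor 4 were lost (2.08%). Without a filter 8 of 121 were lost (2.66% of all peaks). Scaled to reads between peaks 0 were lost and 12 gained, and in a fit over all regions 0 were called (unadjusted p under 0.05 in 30 higher and 6 lower). Leaving out 1 library in turn gave 0 to 5 lost and 0 gained, of which 0 to 4 were among the 5, with up to 2 other regions at Camk2d, Itpr1 or Trdn. Without P14 replicate 1, 0 were lost (9 lower by unadjusted p), and leaving out both replicates 1 gave 0 lost (10 lower by unadjusted p). The library enrichment covariate gave 0 lost (1 lower by unadjusted p). The replicate block gave 0 lost (7 lower by unadjusted p, edgeR adjusted p for the 5 from 0.142 to 0.168). The share of all peaks with an unadjusted p under 0.05 was computed for the main fit only (2.73% higher and 5.2% lower). The counts by unadjusted p in the other fits therefore cannot be set against all peaks. Same-numbered libraries did not deviate together (correlations of -0.047, -0.044 and 0.023), and 1 of 3 P14 libraries correlated best with its own number. These values show no sign of pairing by number, but cannot settle whether the numbers pair libraries, which the labels do not say.

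Over all peaks, 133 were gained and 2359 lost. The counts were 6708 and 45 when scaled to reads between peaks, 0 and 0 over all regions, under the block, under the covariate and without P14 replicate 1, and 35 and 221 without both replicates 1. Leaving out another single library gave 27 to 111 gained and 606 to 1682 lost.

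Of 270 alternative values for 16 named regions, 211 kept direction and side of the threshold. Another 44 kept direction and no longer passed, 4 passed newly and 11 turned. All 44 were at the regions called lost above. The other named regions had not passed to begin with, so the 211 is no measure of how stable the calls were. Scaled to reads between peaks and in the fit over all regions, log2 changes turned to 0.97 and 0.48 at the highest Camk2d region, 0.76 and 0.32 at the highest Itpr1 region, and 0.72 and 0.28 at the highest Itpr2 region. With the covariate they turned to -0.00069 at the widest Itpr3 region and -0.029 at the highest Jph2 region. The Casq2 region ranged from -0.44 (without P1 replicate 1) to 0.52 with 1 library left out, with -0.19 without P14 replicate 2, and was -0.17 without both replicates 1. The cause was not tested.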
